A study of Mus musculus with 12 samples.

Results

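La-related proteins share the La module, an RNA-binding fold first described in the La protein, and differ in which RNAs they hold and what they do with them. The mouse family is encoded by 7 genes, Larp1, Larp1b, Larp4, Larp4b, Larp6, Larp7 and Ssb, and their RNA levels and transcripts were read here in brain RNA-seq libraries. The members were taken by name, and they are 7 of 55073 gene symbols that the deposited transcripts map to. The study compared Larp1 cKO mice, in which Nestin-Cre removes a floxed Larp1 gene (Nestin-Cre;Larp1-flox/flox), with Larp1 WT mice that carry Nestin-Cre alone. RNA came from the posterior cortex of 3 male mice of each genotype on a C57BL/6J background, whose age at sampling no source used here gives, and it was depleted of ribosomal RNA. Nestin-Cre acts in progenitors of neurons and some glia, so vessels, microglia and other cells of the cortex that arise elsewhere keep their Larp1 gene in the cKO, and both genotypes carry the transgene. The files analysed here hold 6 libraries, named by the numbers of the mice (678, 687, 688, 698, 700 and 703).

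No label or header says which numbered mouse was cKO and which WT. The 12 labelled samples (6 Larp1 cKO and 6 Larp1 WT, each genotype with 3 replicates in 2 parts) could therefore not be matched to libraries, and no genotype was read from the values. Every level below is given for each library or as the range and median over the 6 libraries, with no comparison of genotypes and no test between groups of libraries.

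Depth was 34689262 to 44463362 expected counts per library, and 15002 genes had at least 10 counts in every library. The files do not name the tissue. Slc17a7, a marker of cortical excitatory neurons, had 346.5 to 491.9 TPM (a share of all RNA listed, scaled by transcript length), while Pcp2 and Gabra6, which mark the cerebellum, did not exceed 0.09 and 0.02 TPM. Cbln1, the third cerebellar marker listed, was present at 3.77 to 10.44 TPM. Messenger RNAs of nuclear protein-coding genes took 22.7% of TPM in mouse 700, the lowest, and 28.8% in mouse 703, the highest. The immediate early genes Fos and Arc spanned 5.56-fold and 5.25-fold between libraries, and the 2 globin transcripts Hbb-bs and Hba-a1 spanned 12.2-fold and 13.4-fold. Apart from a rescaling of TPM over nuclear protein-coding genes, the part of these differences in the results below was not tested.

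As background, Larp1 binds the cap and the first bases of mRNAs with a terminal oligopyrimidine (TOP) motif, which encode ribosomal proteins and translation factors, and mTORC1 controls that binding. Larp1b is its paralog. Larp4 and Larp4b bind poly(A)-binding protein and RACK1 and act on mRNA stability and translation. Larp6 binds a stem-loop in collagen mRNAs, Larp7 holds the 7SK RNA that keeps the elongation kinase P-TEFb inactive, and Ssb encodes La itself, which binds the uridine-rich ends of new RNA polymerase III transcripts.

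The first bases of the leading transcript of each gene are shown because the TOP motif is read at that place. The leading transcript is the one whose median TPM was highest, with the start that GENCODE M21 gives on GRCm38, and each sequence runs 5′ to 3′ on the strand of the gene. Capitals mark a C within the first 5 bases and the run of C and T that follows it, where that run is at least 4 bases long.
Larp1: gagCCTTCTgcccggcgcgccactc
Larp1b: tgtccaccgtgggcaccggcgtgcc
Larp4: agttgttgcttcccgggaggaggga
Larp4b: gaaaaaggaaggatcggctgccgtc
Larp6: tggtctgggttttaccccgggacag
Larp7: tatgacgtcagcaacgaaccctggg
Ssb: tgcgtccgcggccacgcccacctgt

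Of the 7 starts, that of Larp1 alone held such a run, and it began at base 4, after gag. A C with its run at the first base itself, where the paper places the TOP motif, was present at none of the 7. Among the leading transcripts of 13618 detected nuclear protein-coding genes, 2.35% had such a run at the first base and 9.16% within the first 5 bases. The 1 gene of 7 is thus near the share of all genes. RefSeq placed the start at the same base for Larp1, Larp4, Larp7 and Ssb. It placed that of Larp1b 155 bases and that of Larp6 132 bases farther downstream, and that of Larp4b 101 bases farther upstream. The first bases at that Larp4b start read ggaCTTCCgcagggccccggaagtg and hold such a run from base 4. Over 27025 RefSeq starts, 9.87% held such a run within 5 bases. Start positions were taken from annotation and were not measured in these libraries, and the search covered the transcribed strand only. The same search was made on the 8 ribosomal protein genes nearest to Larp1, named below. Among them Rps27 alone held such a run, from base 2. Rps20, a canonical TOP mRNA in the paper, held none. A start without the run in this search therefore does not show that an mRNA lacks the motif.

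Larp1 lies on chromosome 11 from 58009064 to 58062034, on the plus strand. Its level was 19.96 TPM in mouse 678, 18.77 in mouse 687, 6.28 in mouse 688, 6.44 in mouse 698, 17.48 in mouse 700 and 7.32 in mouse 703. The highest library was thus 3.18 times the lowest. In such bulk RNA, fewer cells that express a gene and less of its RNA per cell cannot be told apart. The reads behind these levels were 5187 expected counts in mouse 678, 5432 in mouse 687, 1632 in mouse 688, 1368 in mouse 698, 4942 in mouse 700 and 1610 in mouse 703. As a share of the library, Larp1 took 127.1, 122.2, 38.6, 39.4, 122.6 and 41.5 per 1000000 counts (CPM) in the same order of mice. The 95% exact Poisson intervals, which cover counting error only, were 123.7 to 130.6 CPM for mouse 678 and 36.8 to 40.5 CPM for mouse 688. When the 6 libraries were ordered by CPM, the intervals of neighbours overlapped at every step but that between mouse 687 and mouse 703. The median of 12.4 TPM falls in that step and is the level of no library.

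The ratio of highest to lowest library reached 2 for Larp1 and Larp1b, 2 of the 7 genes by TPM, against 15.2% of all 15002 detected genes. By CPM it reached 2 for Larp1 alone, against 10.8% of detected genes, and 1.5 also for Larp1 alone, against 29.0%. Of all detected genes, 3.11% had a TPM ratio as large as that of Larp1 or larger, and 2.01% had such a CPM ratio. Among 1648 genes with a mean count within 1.5 times that of Larp1, the share was 0.607% by TPM and by CPM. The median detected gene had a ratio of 1.49 by TPM and 1.32 by CPM. The levels of 5 members by TPM and of 4 by CPM lay on 2 sides of a gap wider than the spread on each side, against 38.9% and 41.1% of detected genes. Larp1b is 1 of the 5 by TPM only through a very short transcript described below, and without it 4 members met this.

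**Figure D1:**
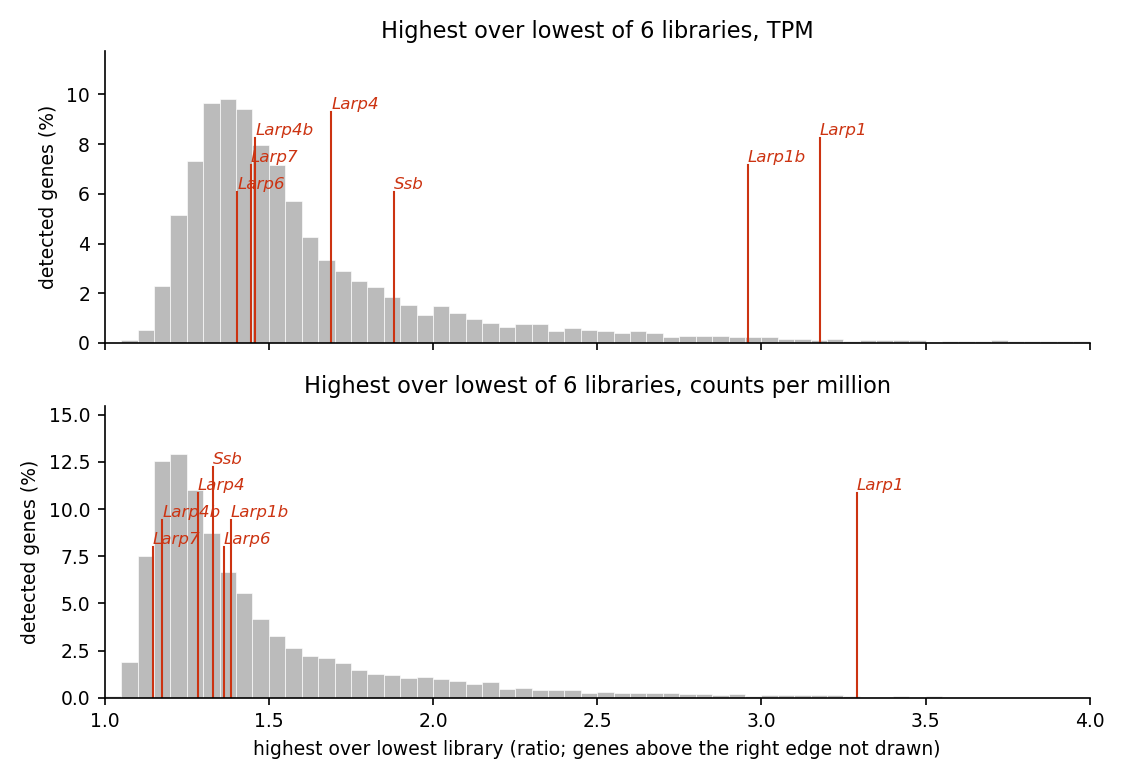
Histograms of the highest over the lowest of 6 libraries for 15002 detected genes, by TPM (top) and by CPM (bottom), in percent of genes per bin, with red lines at the La-related genes. Larp1 stays at 3.18 and 3.29 in the tail of both, while Larp1b moves from 2.96 by TPM into the bulk at 1.38 by CPM.

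The histograms of the spread over libraries place the other genes of the family. By CPM, the ratios of the 6 other genes ran from 1.15 for Larp7 to 1.38 for Larp1b. By TPM they ran from 1.40 for Larp6 to 2.96 for Larp1b. With TPM rescaled over nuclear protein-coding genes they ran from 1.15 for Larp4b to 2.33 for Larp1b. Mouse 703 had the highest TPM of all 6 of these genes, and it also had the largest share of TPM in nuclear protein-coding genes. Mouse 700, with the smallest such share, had the lowest TPM of 4 of them (Larp1b, Larp4b, Larp7 and Ssb).

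**Figure D2:**
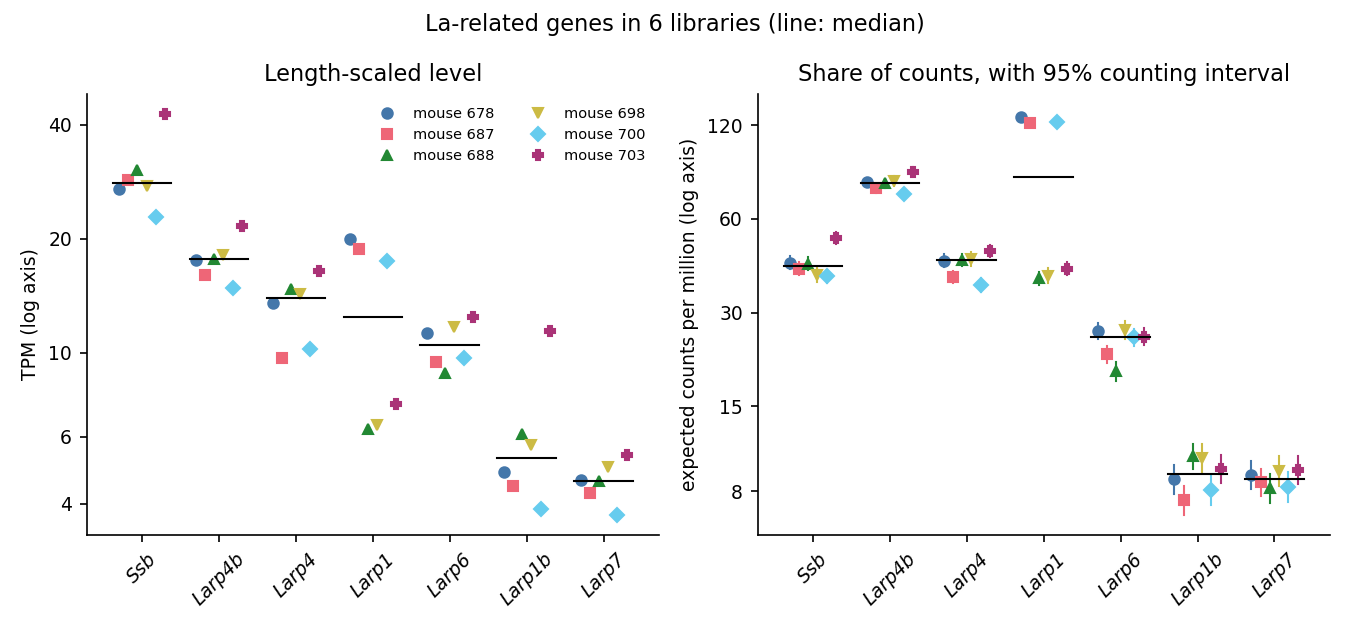
Levels of the 7 La-related genes in each of 6 libraries, as TPM (left) and as CPM with 95% counting intervals (right), on log axes, with a line at each median. Larp1 spreads from 6.28 to 19.96 TPM, and Ssb is the most abundant of the 7 in every library by TPM.

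The plot of levels by library shows the order within the family. Ssb, with a median of 28.0 TPM (range 22.77 to 42.8), was above Larp4b, at 17.6 TPM (14.85 to 21.66), in 6 of 6 libraries. Larp4b was above Larp4, at 13.9 TPM (9.72 to 16.43), in all 6. Larp4 was above Larp1 in only 3 libraries, and Larp1 was above Larp6, at 10.5 TPM (8.83 to 12.4), in 3. Larp6 was above Larp1b, at 5.29 TPM (3.87 to 11.45), and Larp1b above Larp7, at 4.60 TPM (3.73 to 5.39), in 6 of 6 libraries each. Larp1 ranked 2nd of the 7 in mice 678, 687 and 700, 5th in mice 688 and 698, and 6th in mouse 703, where it ranked 5th once the very short Larp1b transcript described below was left out. Its share of the summed TPM of the family was 20.2% in mouse 678, 20.6% in mouse 687, 7.08% in mouse 688, 7.25% in mouse 698, 21.2% in mouse 700 and 6.23% in mouse 703. The summed level of the 6 other genes was 78.85 TPM in mouse 678, 72.45 in mouse 687, 82.37 in mouse 688, 82.36 in mouse 698, 65.16 in mouse 700 and 110.1 in mouse 703, a 1.69-fold range. Without the very short Larp1b transcript, the sum in mouse 703 was 104.9 TPM and the range 1.61-fold. The Larp1 share in mouse 703 was then 6.52%.

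Larp1 and its paralog Larp1b had TPM ratios of 4.12 in mouse 678, 4.23 in mouse 687, 1.03 in mouse 688, 1.12 in mouse 698, 4.52 in mouse 700 and 0.639 in mouse 703. The value below 1 in mouse 703 rests on 0.2 expected counts of 1 very short transcript, Larp1b-212, and without it the ratio there was 1.17, so that Larp1 was above Larp1b in every library. By contrast, the Larp4b level was 1.20 to 1.65 times that of Larp4 in every library.

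GENCODE M21 lists 3 transcripts of Larp1. Larp1-203, protein-coding and 6617 bases long, held 93.9% to 98.8% of the gene's TPM with a median of 95.4%, and a median of 99.6% of its expected counts. Larp1-201, 6614 bases long, codes for the same number of codons, 1072, from the same start. It was listed at 0 in 4 libraries and had 239.0 expected counts in mouse 687 and 74.7 in mouse 678. Over the length of the shorter one, the sequences of these transcripts differ at 2 bases, and Larp1-203 has 3 more bases at its end, so the reads that can tell them apart are few. Larp1-202, a retained-intron transcript of 747 bases, took 0.67 TPM in mouse 678, 0.34 in mouse 687, 0.09 in mouse 688, 0.31 in mouse 698, 0.76 in mouse 700 and 0.09 in mouse 703. These levels rest on 1.91 to 20.2 counts. Levels summed over all exons of a transcript do not show whether any one exon was read, and the floxed exons were not examined.

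**Figure D3:**
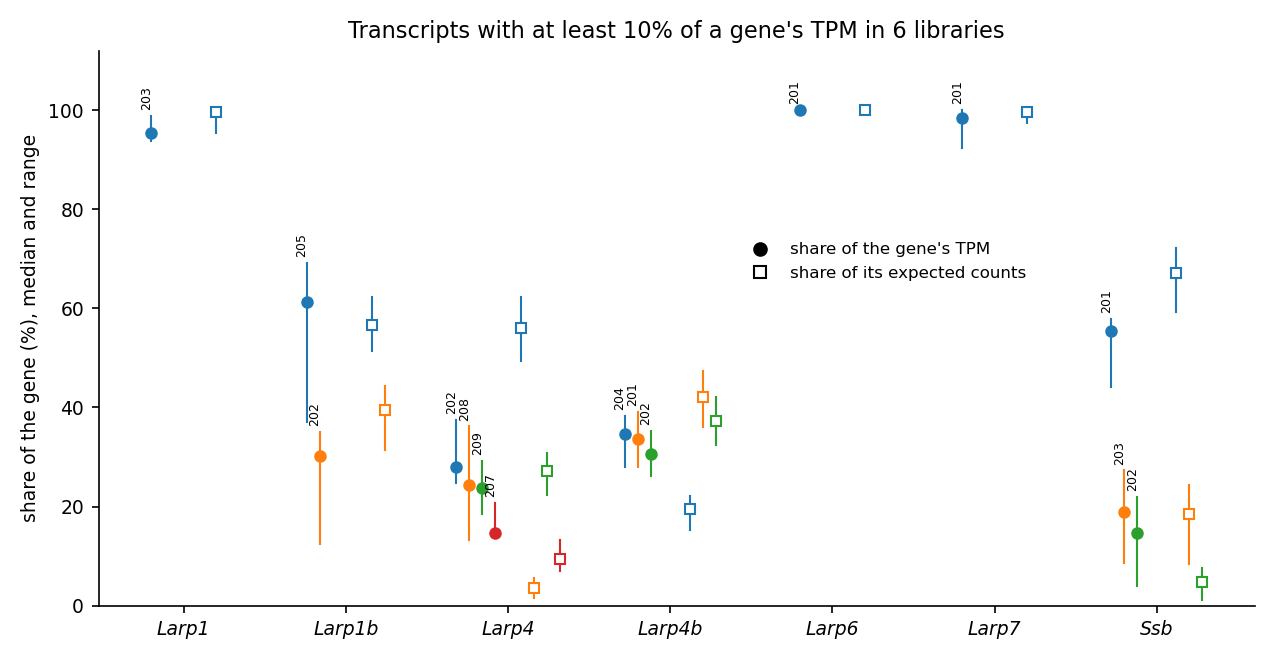
Share of each gene's TPM (filled circles) and expected counts (open squares) in every transcript with a median of at least 10% of the gene's TPM, in percent, as median and range over 6 libraries, with transcript numbers above the circles. Larp1, Larp6 and Larp7 rest on 1 transcript each, while Larp4-208 falls to 3.65% of counts from 24.3% of TPM.

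Larp1b lies on chromosome 3 from 40949828 to 41040234, on the plus strand, and has 15 listed transcripts. Its level was 4.84 TPM in mouse 678, 4.44 in mouse 687, 6.09 in mouse 688, 5.73 in mouse 698, 3.87 in mouse 700 and 11.45 in mouse 703. Mouse 703 lies far above the other 5 libraries. The expected counts do not show this. They were 357 in mouse 678, 333 in mouse 687, 438 in mouse 688, 355 in mouse 698, 326 in mouse 700 and 367 in mouse 703. All neighbouring libraries by CPM had overlapping intervals, though those of mouse 687, the lowest, and mouse 688, the highest, were apart. The higher TPM of mouse 703 comes from Larp1b-212, a noncoding transcript of 103 bases. In mouse 703 it had 0.2 expected counts, which is 0.0545% of the gene's counts. Its effective length, the number of positions at which a fragment of the library can start, was 1.01 to 1.46 bases over the libraries. With that divisor it was assigned 5.21 TPM, or 45.5% of the gene's TPM, and it was at 0 in the other 5 libraries. Without Larp1b-212 the level in mouse 703 was 6.24 TPM and the ratio between libraries fell to 1.61.

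Larp1b-212 has 2 exons, and both lie inside exons of the leading transcript Larp1b-205. What sets it apart is its junction, from chr3:40961652-40961666 to chr3:40963968-40963982 of GRCm38, plus strand, which skips an exon that Larp1b-205 keeps. The junction is shown because no other listed Larp1b transcript holds it, with capitals for the downstream exon. All 103 bases of Larp1b-212 also lie in Larp1b-205. Reads off the junction can thus be shared between these transcripts, and whether any read crossed the junction was not examined.
Larp1b-212: aagaaatccaacaagTCTCAGAGTGTTATC
Of the 15 transcripts, these 30 bases occur in 1.

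**Figure D4:**
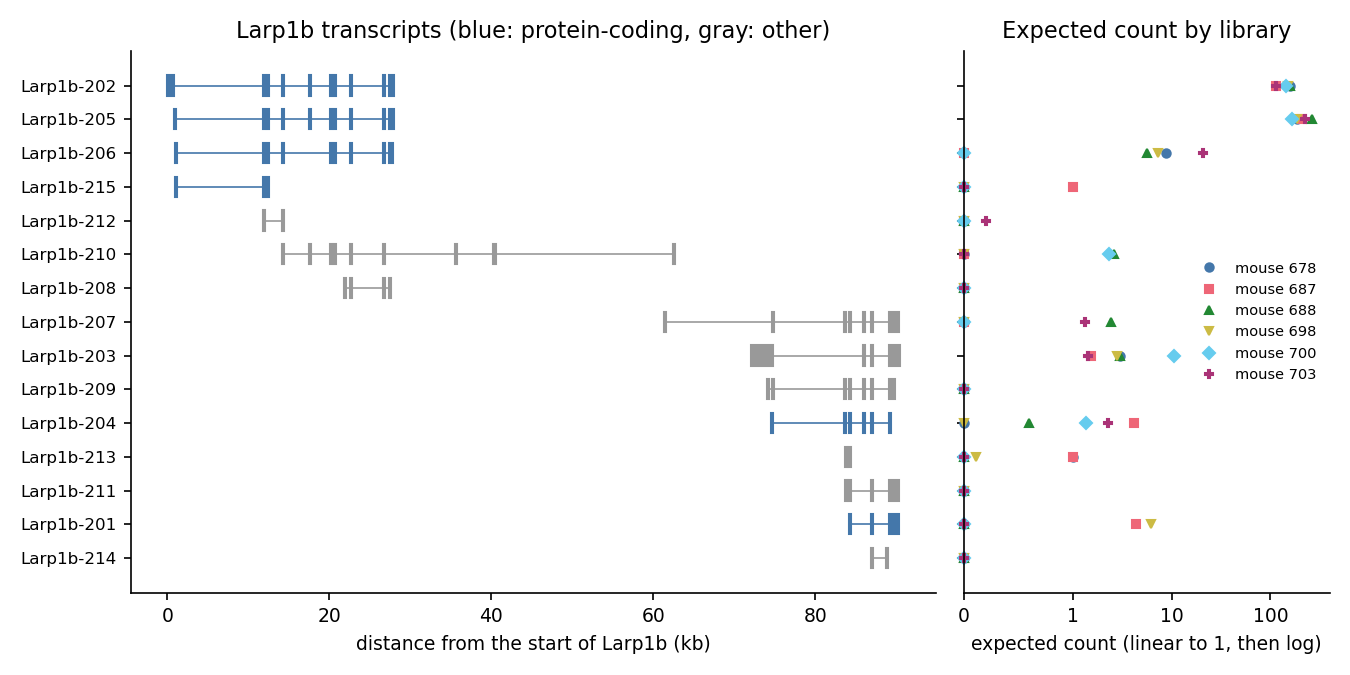
Exons of the 15 annotated Larp1b transcripts by distance from the start of the gene in kb (left, blue for protein-coding, gray for other) and their expected count in each of 6 libraries (right, linear to 1 and then log). The transcripts of the upstream end hold nearly all counts, and the downstream group stays at 4 to 12 counts per library in sum.

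The map of Larp1b transcripts shows 2 groups that share no exon. The 6 transcripts at the upstream end held 353, 322, 429.4, 346, 311.7 and 362 expected counts in mice 678, 687, 688, 698, 700 and 703. The 8 at the downstream end held 4, 11, 6, 9, 12 and 5 counts in the same order. Larp1b-210, a nonsense-mediated decay transcript and the 1 that reaches beyond the upstream exons, had at most 2.6 counts. The leading transcripts were Larp1b-205, with 335 codons and a median of 61.4% of TPM, and Larp1b-202, with 541 codons and 30.2%. Their coding sequences end at the same base, 40977224, and the 1005 coding bases of Larp1b-205 all lie within the 1623 of Larp1b-202. M21 lists no protein-coding transcript that joins both groups, so reads across such a join would have no transcript to be counted on.

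Larp4, on chromosome 15 from 99970065 to 100016358, plus strand, had 13.53 TPM in mouse 678, 9.72 in mouse 687, 14.71 in mouse 688, 14.31 in mouse 698, 10.25 in mouse 700 and 16.43 in mouse 703. Mice 687 and 700 were lowest, and by CPM the step between mouse 678 (44.1) and mouse 687 (39.1) was the only one at which the intervals did not overlap. Of its 9 transcripts, Larp4-202, with 719 codons, held a median of 28.0% of TPM but 56.0% of counts. The short noncoding Larp4-208 (643 bases) held 24.3% of TPM on 3.65% of counts. It had 2.90 TPM in mouse 678, 1.29 in mouse 687, 5.32 in mouse 688, 4.26 in mouse 698, 2.11 in mouse 700 and 4.45 in mouse 703. Larp4-209 and Larp4-207, with 660 and 610 codons, held 23.8% and 14.6% of TPM. Noncoding and decay transcripts together took 19.8% to 37.1% of Larp4 TPM, against 3.98% to 7.43% of its counts, so the TPM of Larp4 leans on short transcripts with few reads. Its expected counts were not whole. Among the 50-base words of Larp4-202, 18.9% also occur in transcripts of 3 other genes, of which the processed pseudogene Gm14373 holds most and had 5.40 to 14.9 counts.

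Larp4b, on chromosome 13 from 9093881 to 9174451, plus strand, was the steadier of this pair. It had 17.57 TPM in mouse 678, 16.05 in mouse 687, 17.71 in mouse 688, 18.14 in mouse 698, 14.85 in mouse 700 and 21.66 in mouse 703, a ratio of 1.46 by TPM and 1.18 by CPM. Larp4b-204, Larp4b-201 and Larp4b-202, with 663, 657 and 741 codons, held medians of 34.6%, 33.7% and 30.5% of TPM. By counts Larp4b-204, the shortest at 2658 bases, fell to 19.6% and Larp4b-201 had 42.2%. Larp4b-201 had the highest median TPM, at 6.12. No 50-base word of it occurs in a transcript of another gene.

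Larp6, on chromosome 9 from 60712989 to 60738801, plus strand, has 1 listed transcript of 492 codons. Its level was 11.29 TPM in mouse 678, 9.44 in mouse 687, 8.83 in mouse 688, 11.68 in mouse 698, 9.69 in mouse 700 and 12.40 in mouse 703. The CPM ratio of 1.36 was close to the median detected gene, and no step between neighbouring libraries had separate intervals. The intervals of the lowest and highest libraries were apart, at 18.1 to 20.8 CPM in mouse 688 and 24.8 to 28.2 CPM in mouse 698. Of its 5 listed ligands and cofactors, none had a TPM ratio of at least 2, against 15.2% of detected genes. The type I collagen mRNAs that Larp6 binds were low, with medians of 2.53 TPM for Col1a1 and 3.34 TPM for Col1a2. Myh10, a nonmuscle myosin heavy chain, was the most abundant of the 5, with a median of 27.2 TPM, and had the widest ratio, 1.69.

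Larp7, on the minus strand of chromosome 3 from 127536714 to 127553349, had the lowest median of the family. Its level was 4.61 TPM in mouse 678, 4.26 in mouse 687, 4.59 in mouse 688, 4.99 in mouse 698, 3.73 in mouse 700 and 5.39 in mouse 703, on 323 to 380 expected counts. Larp7-201, with 570 codons, held a median of 98.5% of TPM. Its CPM ratio of 1.15 was the smallest of the 7, and 91.3% of detected genes had a ratio at least as large. The RNA it holds, Rn7sk, had a median of 51411 TPM, with a ratio of 1.26. All 7 listed genes of the 7SK particle and P-TEFb were detected and none had a TPM ratio of at least 1.5, against 47.8% of detected genes. The widest was Ccnt1, the cyclin of P-TEFb, at 1.41, with a median of 8.03 TPM.

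Ssb, on chromosome 2 from 69861562 to 69871846, plus strand, had 27.01 TPM in mouse 678, 28.54 in mouse 687, 30.44 in mouse 688, 27.51 in mouse 698, 22.77 in mouse 700 and 42.80 in mouse 703. Mouse 703 was highest here by counts as well, at 52.1 CPM against 43.4 CPM in mouse 678, the next library, and their intervals did not overlap. Ssb-201, with 415 codons, held a median of 55.4% of TPM. Ssb-203, a nonsense-mediated decay transcript, held 18.9%, and its share ran from 8.58% in mouse 687 to 27.3% in mouse 678. Ssb-202, a coding fragment of 634 bases, held 14.6%. The exons of Ssb overlap by 169 bases with those of Mettl5 on the other strand, which had 83.0 to 133 counts. A directional kit, which marks strand, is named in the labels and in the paper's list of materials. The RNA-seq methods of the paper name the library kit without the word directional. Whether reads were counted by strand is stated in no source used here, so reads in those bases cannot be assigned with certainty. Of the 6 listed RNA polymerase III transcripts and neighbours of La, 5 were matched. None had a TPM ratio of at least 2, against 15.2% of detected genes. Rpph1, the RNA of RNase P, had the highest median, at 9286 TPM, and Polr3g, a subunit of RNA polymerase III, had the widest ratio, 1.73.

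Further genes around Larp1 were read in the same way. None of the 6 genes of mTORC1 and its activator Rheb reached a TPM ratio of 2, against 15.2% of detected genes. Rheb had the highest median, 26.4 TPM, and Deptor, an inhibitor of mTOR, had the widest ratio, 1.82. None of the 6 factors that meet the cap reached 1.5, against 47.8% of detected genes, and the helicase Eif4a1 had the highest median, 74.9 TPM, while the scaffold Eif4g1 had the widest ratio, 1.48. Among the 3 genes for PABP and RACK1, Pabpc1 had the highest median at 51.3 TPM and Rack1 the widest ratio at 1.93. Every one of these 15 genes thus spanned less between libraries than Larp1, as did all but 3.11% of detected genes.

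Likeness to Larp1 was measured over the 6 libraries as the root mean square (RMS) difference in log2(TPM + 1), after each gene was centred on its own mean. Of 13617 other detected nuclear protein-coding genes, the 8 nearest all encode ribosomal proteins. They were Rps3a1 (RMS 0.013), Rpl35a, Rpl9, Rps27a, Rpl21, Rps27, Rpl23a and Rps20 (0.066), against a median of 0.75 over all genes compared. Rps3a1 had 167.1 TPM in mouse 678, 155.2 in mouse 687, 57.8 in mouse 688, 57.6 in mouse 698, 145.1 in mouse 700 and 65.2 in mouse 703. The 3 libraries with the most Rps3a1 were the 3 with the most Larp1, which comes with its choice as the nearest gene. Among the 100 genes nearest to Larp1, 76 were of the 82 detected ribosomal protein genes, and the 100th lay at 0.42. Ribosomal protein genes have many near-identical pseudogenes in the genome, so their counts carry the uncertainty of shared reads.

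**Figure D5:**
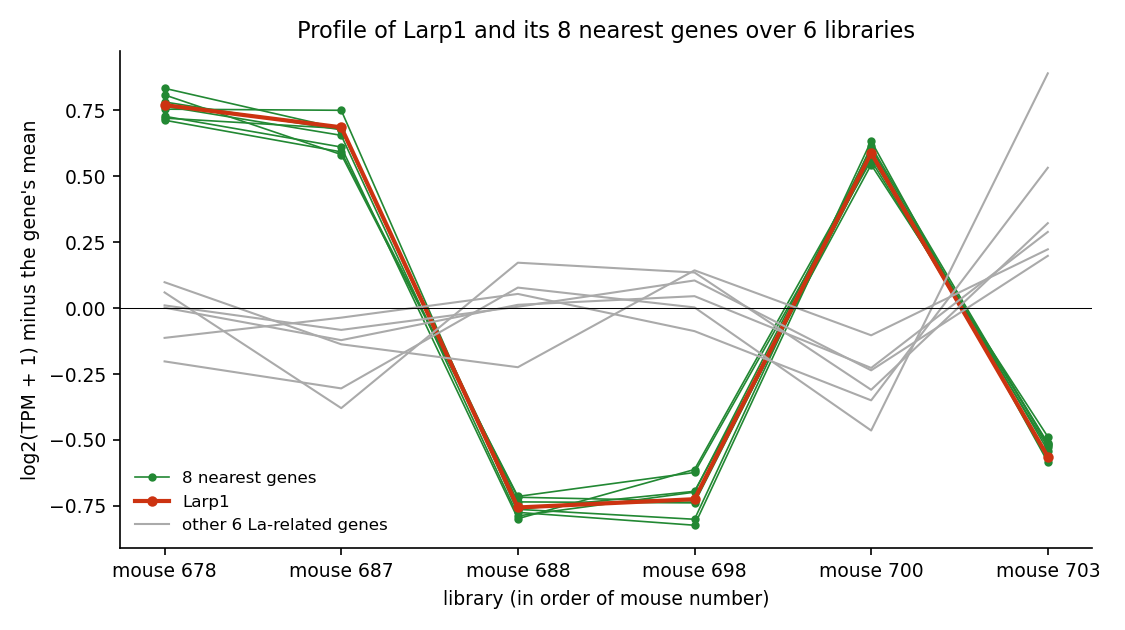
Centred log2(TPM + 1) of Larp1 (red), its 8 nearest genes (green) and the other 6 La-related genes (gray) over 6 libraries in order of mouse number, with lines that join the points of a gene. The 8 nearest genes lie within an RMS of 0.066 of Larp1, and all other members are at 0.74 or more.

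In the plot of centred profiles, no other member of the family followed Larp1. The nearest of them, Larp6, ranked 5556 of 13617 genes at an RMS of 0.74, and its paralog Larp1b ranked 13556 at 1.03. Without Larp1b-212 it ranked 13059 at 0.88, nearer than Larp4 at 0.90. The RMS does not tell a flat profile from one that runs the other way. Without Larp1b-212, Larp1b had 4.84, 4.44 and 3.87 TPM in mice 678, 687 and 700, the libraries with the most Larp1. In mice 688, 698 and 703 it had 6.09, 5.73 and 6.24 TPM. Larp4 and Larp4b also had less TPM in each of mice 678, 687 and 700 than in any other library. Larp6, Larp7 and Ssb did not. The 3 genes nearest to Ssb were Wdr47 (RMS 0.026), Aqp11 and Cplx2. Each of these, like Ssb, was highest in mouse 703 and lowest in mouse 700, which comes with their choice by likeness to Ssb. These libraries had the largest and smallest share of TPM in nuclear protein-coding genes.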

How the data were processed

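RNA-seq was made from rRNA-depleted cortex RNA. According to the labels and methods, the authors used cutadapt for adapters, STAR on mm10 for alignment and RSEM for quantification. They deposited, per transcript and library, expected counts that are not normalized, and TPM scaled by the authors over all 142351 listed transcripts. The deposited percent column for isoform share (IsoPct) held only 0 or 100, so shares were recomputed here. The 6 deposited FPKM columns were not used.

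The paper names UCSC annotations for RSEM, but the files list Ensembl transcript identifiers. Transcripts were matched to GENCODE M21 (GRCm38) by identifier (99.361% matched, 910 did not) and summed per gene. TPM divides by effective length, which is small for very short transcripts. CPM is the expected count per 1000000 of the library total. Intervals are exact Poisson (95%). TMM (edgeR 4.0.16, R 4.3.3) and DESeq2 1.42.0 size factors, on counts rounded after summing, were alternatives. Detected means at least 10 counts in every library. The calculations were tested on simulated data. Columns could be tied to 0 labelled samples, so no test of genotype was run. A limit of Dixon's outlier ratio served only to flag single libraries.

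All members were named, with every transcript holding a median of 10% of TPM, the 8 and 3 genes nearest to Larp1 and Ssb, and the highest and widest gene of each partner list. Col1a1, Col1a2, Fos, Arc, the globins, overlapping genes and transcripts below 10% were named after their values were seen. Larp1b without its shortest transcript was an alternative chosen after seeing the data. Members and lists were chosen with earlier results of these data known. Promoter starts are from RefSeq (GRCm38.p6). Words of 50 bases were compared with all M21 transcripts on both strands. Python was 3.11.15.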

Additional observations from a re-analysis of the deposited data

Results flagged for a closer look

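In 29 sets of 6 library values for the La-related genes and their main transcripts, 3 had 1 library far from the other 5, measured by its gap to the nearest value as a share of the whole range, where chance would give about 1 in 20. In all 3 that library was mouse 703. Larp1b had 11.45 TPM there, against 3.87 to 6.09 TPM in the other 5 libraries. This value rests on 0.2 counts of Larp1b-212. Ssb had 52.1 CPM in mouse 703, against 39.2 to 43.4 CPM in the other 5. Larp4-209 had 4.24 TPM in mouse 703, against 2.67 to 3.13 TPM in the others. Mouse 703 also had the largest share of TPM in nuclear protein-coding genes, 28.8%. With TPM rescaled over these genes, the ratio between libraries was 1.48 instead of 1.88 for Ssb, and 2.33 instead of 2.96 for Larp1b. Beyond this rescaling, the part of the share in the TPM values was not tested.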

How the results depend on the processing

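The number of La-related genes with a ratio of at least 2 was 2 by TPM and by TPM rescaled over nuclear protein-coding genes. It was 1, Larp1 alone, with CPM, with TMM-scaled CPM, with DESeq2 size factors, with protein-coding isoforms only, and with transcripts of at least 200 bases only, an alternative chosen after seeing the data. A fold of at least 1.5 gave 4, against 47.8% of detected genes. Leaving out each library in turn gave 1 to 2, and the 1 came without mouse 703. The Larp1 ratio of 3.18 stayed between 3.06 and 3.29 under the other scalings and isoform sums, and between 2.99 and 3.18 with each library left out. The leading isoform share of Larp1, 95.4% of TPM, was 99.6% of expected counts and 100% among protein-coding isoforms, and 95.2% to 95.7% with each library left out. Among 82 further values, 48 stayed within the spread and 34 moved. With lower count limits, 32.7% and 32.8% of genes had a ratio of at least 2. Of the 8 genes nearest to Larp1, 4 stayed with a pseudocount of 0.25, 3 with TMM-scaled CPM, and 6 to 8 with a library left out. No paired analysis was possible because the columns carry no replicate number. Depth limits transcripts with few counts, and the missing link between mouse and genotype limits every level here to a description.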

Other observations

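A gene was taken to fall into separate clusters of libraries where, on the log2 scale, its largest gap between neighbours was wider than the spread on each side. Larp1 met this by TPM, with 6.28, 6.44 and 7.32 in mice 688, 698 and 703 and 17.48, 18.77 and 19.96 in mice 700, 687 and 678. By TPM, 5 of the 7 genes met it (all but Larp4b and Larp7), against 38.9% of detected genes, of which Larp1b did so only through Larp1b-212 in mouse 703, so that 4 did without it, and by CPM 4 did (Larp1, Larp4, Larp7 and Ssb), against 41.1%. For Larp7 every step between neighbouring libraries had overlapping counting intervals, so its gap lies within counting error. The property is common in these libraries, and the gap in Larp1 CPM, between 41.5 in mouse 703 and 122.2 in mouse 687, is wide beside those of the other members. For Ssb the CPM of 52.1 in mouse 703 stood alone above 39.2, 39.7, 41.5, 43.1 and 43.4 in mice 700, 698, 687, 688 and 678. For Larp4 the lower values were 36.8 and 39.1 CPM in mice 700 and 687, and the others were 44.1, 44.3, 44.6 and 47.3 CPM in mice 678, 688, 698 and 703.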
